A study of Drosophila melanogaster with 26 samples.

Results

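Transcripts of 7 genes with roles in germ cell migration or at the cell surface were followed in primordial germ cells (PGCs) of the Drosophila embryo: wun, foi, zfh1, Sdc, S, stet and Ptp10D. The genes were picked by name, and a transcript on the array was given a name where its values matched an entry of the study's supplementary lists, which served as a key only. In this way 10 transcripts of the 7 genes were found, of 5395 named transcripts of 4800 genes, on an array with 16623 FlyBase transcripts. Where a gene had more than 1 named transcript, the brightest over all samples stands for it.

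PGCs form at the posterior pole of the embryo, are carried into the midgut pocket as the embryo gastrulates, cross the midgut epithelium, and then move over the mesoderm to the somatic gonad. Their path depends on lipid phosphate phosphatases and other cues from the soma, on contacts with somatic gonadal cells, and on letting go of one another. Newly formed PGCs are transcriptionally silent and carry maternal mRNA, which is later cleared, in part through the RNA-binding protein Smaug. In smaug-mutant embryos, the study reports, germ-band extension is absent or only a pseudo-extension, and the PGCs stay posterior or shift slightly. Mutant and wild-type PGCs of the same age need not therefore match in stage or position.

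RNA was measured in 26 samples of 7 groups. There were 3 samples of smaug-mutant PGCs from embryos aged 1-to-3 hours after egg laying, 3 from those of 3-to-5 hours and 4 from those of 5-to-7 hours. Wild-type PGCs had 4 samples at each of these ages, and somatic cells of wild-type embryos had 4 samples, all of the youngest age. The labels call the samples biological replicates. Embryos of both genotypes carried VASA-GFP, a fusion expressed in germ cells, and the cells were separated by flow cytometry, so that PGCs are the GFP-positive cells and somatic cells the GFP-negative ones of the same embryos. The mutant PGCs, smg1/Df, came from females with the smg1 allele (line VASA-GFP/CyO; smg1/TM3,Sb) over a deficiency, Df(3L)Scf-R6, kept over TM3,Sb. The wild-type line was w1118, VASA-GFP/CyO; PrDr/TM3,Sb. Each sample holds cells pooled from many embryos. A lower signal may mean fewer cells that carry the RNA or less RNA per cell, and these cannot be told apart here. Values are log2 of the deposited intensity, and a level of 1 transcript is not set against that of another, since probes differ in brightness.

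The sources give the dyes differently. By the labels, mutant PGCs of 3-to-5 hours and somatic cells had Cy3 and all other groups Cy5, so that dye and group cannot be told apart in comparisons with either. By the methods, wild type had Cy3 and smg1/Df had Cy5, and dye and genotype cannot then be told apart at any of the 3 ages. The labels were checked with marker transcripts. The signal of smg in the youngest PGCs was 11.19 to 11.73 in the mutant and 13.25 to 13.98 in wild type, and it was also lower in the mutant at 3-to-5 hours (11.46 to 11.73, against 12.48 to 12.66 in wild type) and at 5-to-7 hours (10.58 to 11.36, against 11.53 to 12.22 in wild type), without overlap. Summed over 13 named germ cell markers, all of them named through the list of PGC-enriched transcripts, intensities were 233000 to 252000 in wild-type PGCs of 1-to-3 hours, against 21800 to 28000 in the soma. Of 13 named markers of the somatic blastoderm, 9 were called lower and 1 higher in these PGCs, and their sums were 15900 to 21100 in PGCs, against 92300 to 110000 in the soma. In wild-type PGCs of 5-to-7 hours, replicates 3 and 4 stood apart from replicates 1 and 2: their somatic marker sums were 79400 and 79900, against 17400 and 16500 in replicates 1 and 2, and their germ cell marker sums were 67400 and 87700, against 199000 and 198000. For the brightest transcripts of the 7 genes, results that rest on these samples are therefore also given with each pair alone. Array means lay between 8.18 and 8.25, but the group average of the array medians differed between compared groups by up to 0.26 (-0.26 in PGCs against soma, 0.12 and 0.14 in the first step of wild type and mutant), and a call moved by centring on the median is stated.

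Differences were tested with limma over all 16623 transcripts and called at a Benjamini-Hochberg adjusted p of 0.05 with a fold above 2. Since the names came from the study's own lists, some transcripts were named through the very comparison in question. For these the difference and its standard error (SE) are given as a description with no p-value, and nothing is read from their number. The same holds for the difference between the steps of the genotypes where its wild-type step named the transcript. No mutant sample entered the naming, but comparisons of mutant with wild-type PGCs use wild-type samples that did. One list chose transcripts higher in PGCs of 1-to-3 hours than in the soma (foi, stet and every named Ptp10D transcript). Another chose those lower at 3-to-5 than at 1-to-3 hours (wun, Sdc-RA, S, stet, Ptp10D-RB and Ptp10D-RD). A further list chose those lower at 5-to-7 than at 3-to-5 hours (zfh1, Ptp10D-RA and Ptp10D-RB). The p-values of these comparisons are therefore not independent of the naming.

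Sorted by comparison, the 7 genes behaved as follows. Between 1-to-3 hour PGCs and somatic cells, 4 of 7 were called, where 36% of all transcripts were called in either direction: foi, stet and Ptp10D were higher in PGCs (18.5% of all transcripts), all through the list that named them, and Sdc was lower (17.5% of all transcripts). Of all calls 51.4% were higher in PGCs, or 63.3% with arrays centred on their medians. In wild-type PGCs of 3-to-5 hours, set against the youngest ones, 4 were lower (wun, Sdc, S and stet), beside 8.22% of all transcripts, and each of the 4 was named through that decrease. Marker sums moved in the same step: those of germ cells were 147000 to 162000 at 3-to-5 hours, against 233000 to 252000 at 1-to-3 hours, and those of the somatic blastoderm 27000 to 33900, against 15900 to 21100, with 11 of these 13 markers named through this comparison. The somatic markers did not move together: 7 were called higher and 3 lower, sna (-2.33), sim (-2.27) and Mef2 (-1.18). Of those higher, tll and zen were not lower in 1-to-3 hour PGCs than in the soma (PGC-minus-soma differences 0.72 and 0.40). The part of the markers in the 4 decreases was not tested. In wild-type PGCs of 5-to-7 hours, set against those of the middle age, 2 were lower (zfh1 and Ptp10D), beside 1.52% of all transcripts, again through the list that named them. When any 1 of the 4 wild-type samples of 3-to-5 hours was left out, limma called 0 of the 16623 transcripts in that comparison.

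In the first step of smaug-mutant PGCs, which ends at 3-to-5 hours, 0 of 7 genes were called by limma, where 10.9% of all transcripts were called (49% of these calls higher at 3-to-5 hours, or 37.1% with median centring), and 2 genes had an unadjusted p under 0.05. From 3-to-5 to 5-to-7 hours 2 of 7 genes fell in the mutant (zfh1 and S), beside 6.25% of all transcripts. Mutant PGCs had less Sdc and Ptp10D than those of wild type at 1-to-3 hours, 2 of 7 genes beside 6% of all transcripts. Both were named through lists of transcripts higher in these wild-type samples than in another group, and nothing is read from this count. Mutant PGCs had more stet at 3-to-5 hours, 1 of 7 genes beside 8.77%, and at 5-to-7 hours, 1 of 7 genes beside 1.5%. The wild-type samples of both ages were used in naming stet. At 5-to-7 hours 250 transcripts were called higher in the mutant, but 46 to 58 when any 1 of the 4 mutant samples was left out. The difference between the first steps of the genotypes passed the limits for 3 of 7 genes (Sdc, S and stet), beside 3.85% of all transcripts, but the wild-type decrease within it named all 3, and nothing is read from this count. For the step to 5-to-7 hours this difference was called for 0 of 7 genes by limma, beside 3.15% of all transcripts. An unadjusted p under 0.05 was found for 3 genes, foi (0.67), S (-1.98) and Ptp10D (2.31). With all 7 groups in 1 fit it was called for 2 genes, S and Ptp10D, which differ in sign. That fit called 768 transcripts higher and 645 lower, against 266 and 258 in the main fit. The wild-type step within the difference named Ptp10D, and nothing is read from these counts.

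**Figure D1:**
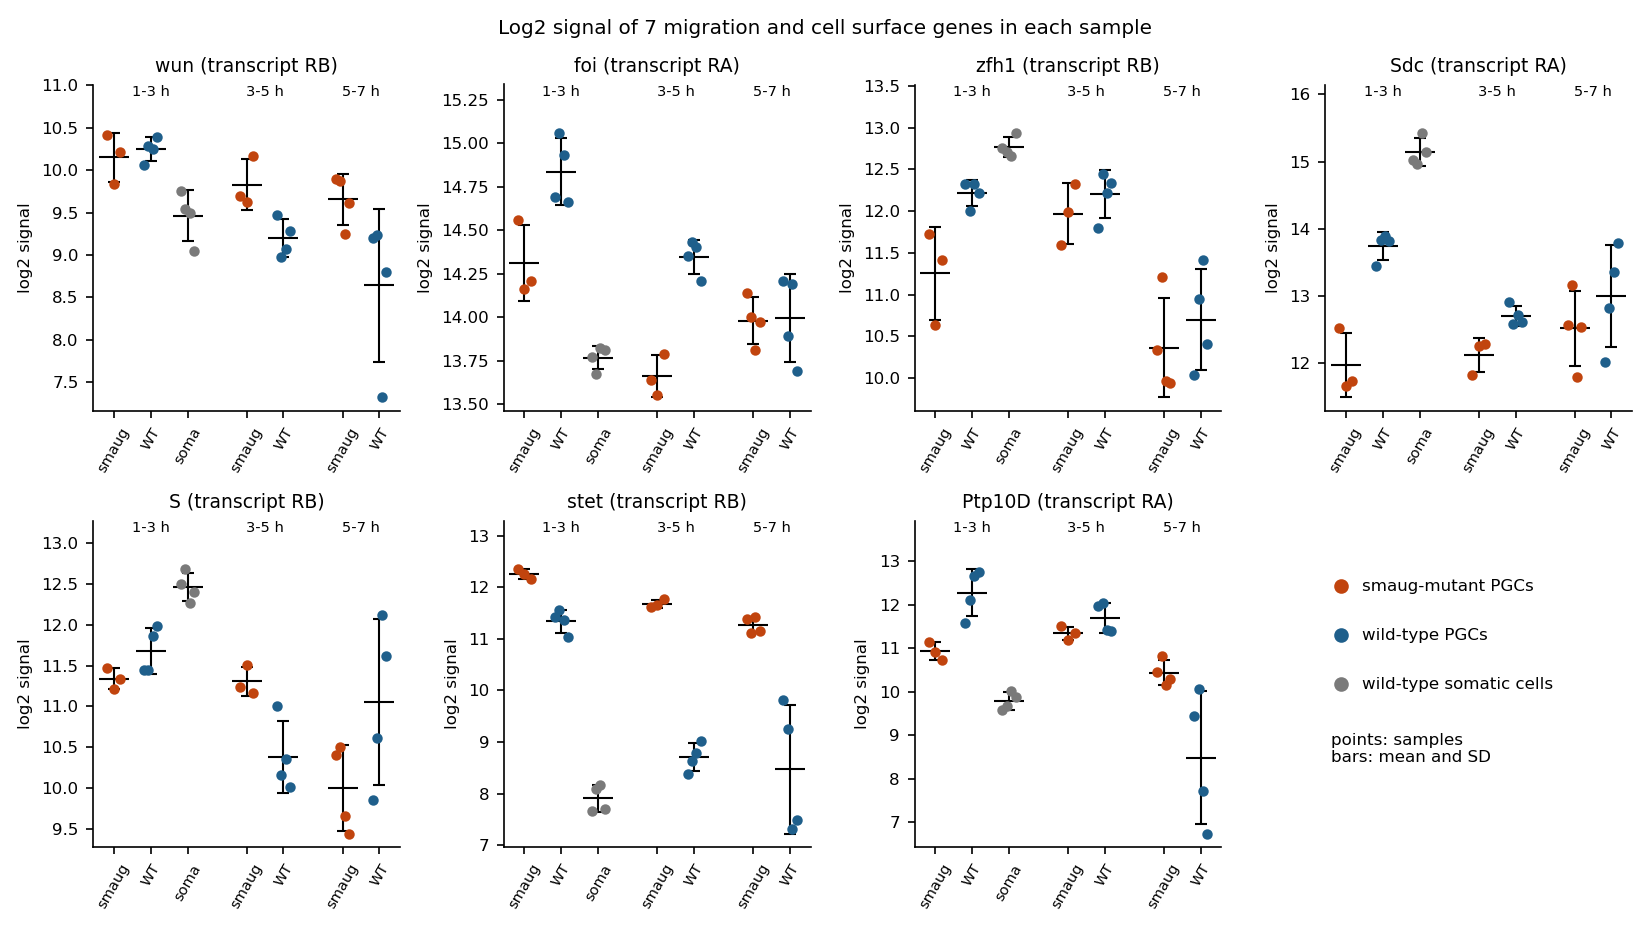
Log2 signal (vertical axis) of the named transcript of each of 7 genes in every sample, by age and group along the horizontal axis. Points are samples, horizontal bars the group means and vertical bars the SD. The stet points of smaug-mutant PGCs stay between 11.11 and 12.35 at all ages, while those of wild-type PGCs lie between 11.03 and 11.55 at 1-to-3 hours and between 8.38 and 9.03 at 3-to-5 hours.

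The first group of genes acts in the path of the PGCs. The gene wun (FBgn0016078, transcript wun-RB, FBtr0088552) encodes a membrane-bound lipid phosphate phosphatase that repels PGCs from somatic tissue. At 1-to-3 hours its log2 signal was 10.41, 9.84 and 10.21 in smaug-mutant PGCs and 10.06, 10.29, 10.25 and 10.39 in wild-type PGCs, while somatic cells had 9.76, 9.54, 9.50 and 9.05. The genotypes overlapped, and all wild-type PGC samples lay above all somatic samples. The PGC-minus-soma difference of 0.78 (SE 0.18, adjusted p = 0.00432) was 1.72-fold and thus under the fold limit, and with arrays centred on their medians it was 1.05 (adjusted p = 0.00126), past the limit.

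At 3-to-5 hours wun had 9.69, 9.63 and 10.17 in mutant PGCs and 9.47, 8.98, 9.07 and 9.28 in wild-type PGCs. All mutant samples lay above all wild-type samples, by 0.63 on average (SE 0.20, adjusted p = 0.0435), a 1.55-fold difference that was not called. The list that named wun chose transcripts low in these wild-type samples, so this p-value is not independent of the naming. At 5-to-7 hours the signal was 9.90, 9.87, 9.25 and 9.61 in mutant PGCs, against 9.20, 9.24, 7.32 and 8.80 in wild-type PGCs. The lowest mutant sample lay just above the highest wild-type sample, and the mean difference was 1.02 (SE 0.44, adjusted p = 0.223). It was 0.44 with wild-type replicates 1 and 2 alone (adjusted p = 0.375) and 1.60 with replicates 3 and 4 alone (adjusted p = 0.0413). The wild-type step from 3-to-5 hours to this age was -0.56 (SE 0.43, adjusted p = 0.461), at 0.02 and -1.14 for the separate pairs, beside -0.17 in the mutant (SE 0.23, adjusted p = 0.656).

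Over time, wun differed by -1.05 (SE 0.15) between wild-type PGCs of 3-to-5 and 1-to-3 hours, the comparison through which it was named. The same step in the mutant gave -0.32 (SE 0.23, adjusted p = 0.387). The steps thus differed by 0.73 (SE 0.27), a value that contains the decrease used in naming. In order of level, 1-to-3 hour PGCs of either genotype came first and did not differ from each other beyond their spread (difference -0.10, 95% interval -0.53 to 0.34), and wild-type PGCs of 5-to-7 hours came last, with an SD of 0.90 that reached across the values of 3-to-5 hour wild-type PGCs.

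The gene foi (FBgn0024236, transcript foi-RA, FBtr0076624) encodes a ZIP family zinc transporter of the cell surface that is required for PGCs and somatic gonadal precursors to coalesce into a gonad. At 1-to-3 hours the log2 signal of foi was 14.56, 14.16 and 14.21 in mutant PGCs and 14.69, 15.06, 14.93 and 14.66 in wild-type PGCs, while somatic cells had 13.77, 13.67, 13.82 and 13.81. The 3 groups did not overlap. The PGC-minus-soma difference was 1.07 (SE 0.14), and this is the list that named the transcript. It was 0.99, just under the fold limit, without wild-type PGC replicate 2.

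At 3-to-5 hours foi had 13.64, 13.55 and 13.79 in mutant PGCs and 14.35, 14.43, 14.40 and 14.21 in wild-type PGCs. Every mutant sample was below every wild-type sample (log2 difference -0.69, SE 0.13, adjusted p = 0.00668), which was 1.61-fold and not called. A deficit of similar size was present at 1-to-3 hours (-0.52, SE 0.18, adjusted p = 0.08). At 5-to-7 hours the means were 13.98 ± 0.14 in mutant and 13.99 ± 0.25 in wild-type PGCs (SD, n = 4 each), a difference of -0.01 with a 95% interval of -0.49 to 0.47 (-0.07 and 0.04 with the separate pairs).

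In wild-type PGCs foi was lower at 3-to-5 than at 1-to-3 hours (log2 difference -0.49, SE 0.14, adjusted p = 0.0299), with no overlap between the ages and a 1.40-fold difference under the limit. In the mutant the same step gave -0.65 (SE 0.18, adjusted p = 0.0566), and the steps of the genotypes differed by -0.16 (95% interval -0.62 to 0.30, adjusted p = 0.689). Between 3-to-5 and 5-to-7 hours foi moved by 0.32 in the mutant (SE 0.17, adjusted p = 0.221) and by -0.35 in wild type (SE 0.19, adjusted p = 0.29, at -0.30 and -0.41 for the separate pairs), a difference of 0.67 (SE 0.24, adjusted p = 0.136) that was 0.62 and 0.73 with the separate pairs of late wild-type replicates. The 7 group means of foi lay between 13.66 and 14.83, a smaller span than for the other 6 genes.

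The gene zfh1 (FBgn0004606, transcript zfh1-RB, FBtr0085701) encodes a zinc finger and homeodomain transcription factor of the mesoderm that is needed for the lateral mesoderm and the somatic gonadal precursors towards which PGCs move. Its log2 signal at 1-to-3 hours was 11.72, 10.64 and 11.41 in mutant PGCs and 12.32, 12.00, 12.33 and 12.22 in wild-type PGCs, while somatic cells had 12.76, 12.71, 12.66 and 12.94. Mutant PGCs were lowest and somatic cells highest, with no overlap between the groups. The wild-type PGCs differed from somatic cells by -0.55 (SE 0.14, adjusted p = 0.00851), and the mutant PGCs from wild-type PGCs by -0.96 (SE 0.27, adjusted p = 0.0377). Both were under 2-fold and not called. Without mutant replicate 1 the genotype difference was -1.19 and passed (adjusted p = 0.0277).

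At 3-to-5 hours the genotypes overlapped in zfh1 (difference -0.24, SE 0.23, adjusted p = 0.484), with 11.59, 11.99 and 12.32 in mutant PGCs and 11.80, 12.45, 12.22 and 12.34 in wild-type PGCs. By 5-to-7 hours zfh1 was at 10.34, 11.21, 9.96 and 9.94 in mutant PGCs and at 10.03, 10.95, 11.41 and 10.41 in wild-type PGCs. Both genotypes were thus lower at 5-to-7 hours than any sample of 3-to-5 hours, and the genotypes overlapped at either age. In the mutant this was a 3.03-fold fall (log2 difference -1.60, SE 0.35, adjusted p = 0.0185) that was called, and it lost its call without mutant 3-to-5 hour replicate 2 (adjusted p = 0.0599) or replicate 3 (adjusted p = 0.0717). In wild type, where this decrease named the transcript, the difference was -1.50 (SE 0.32), at -1.71 with late replicates 1 and 2 and -1.29 with replicates 3 and 4. The steps of the genotypes differed by -0.10, with a 95% interval of -1.17 to 0.97 (0.11 and -0.31 with the separate pairs). At 5-to-7 hours itself the genotypes differed by -0.34 (SE 0.40, adjusted p = 0.649), at -0.12 and -0.55 with the separate pairs.

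Before that, zfh1 differed by -0.02 (SE 0.17) between wild-type PGCs of 3-to-5 and 1-to-3 hours, the stable transcripts being another list that named it. In the mutant this step was 0.71 (SE 0.33, adjusted p = 0.195).

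**Figure D2:**
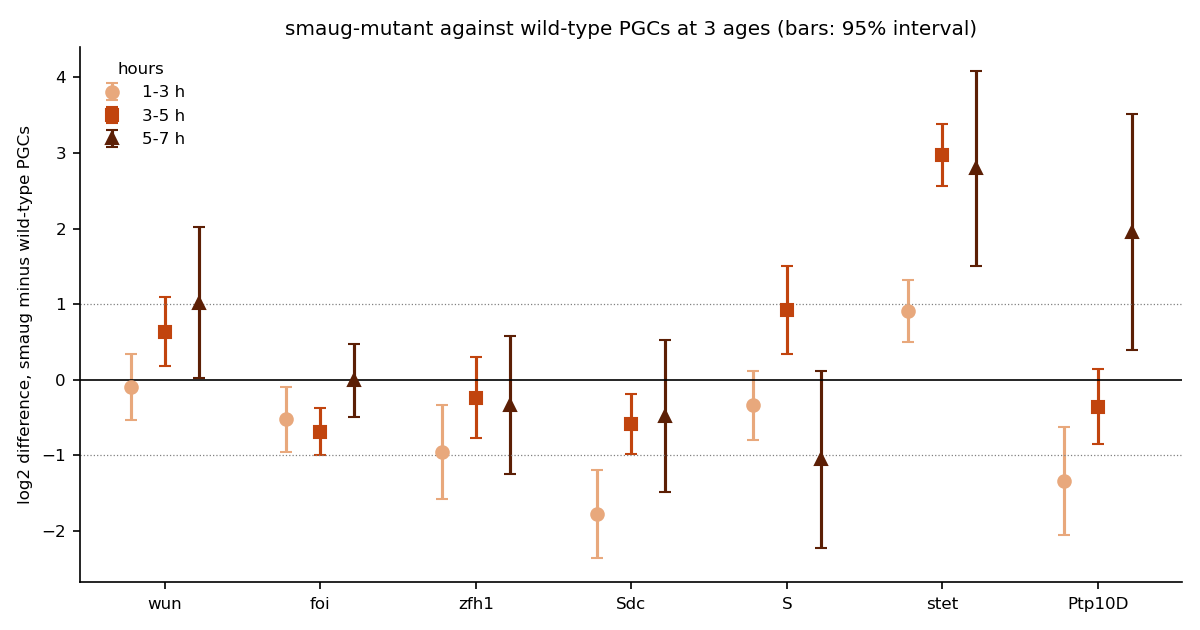
Log2 difference between smaug-mutant and wild-type PGCs (vertical axis, mutant minus wild type) for the 7 genes at each of the 3 ages, with 95% intervals, and dotted lines at a 2-fold change. The intervals of stet lie above 0 at all 3 ages and those of Sdc and Ptp10D lie below 0 at 1-to-3 hours.

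Sdc (FBgn0010415) encodes Syndecan, a transmembrane proteoglycan that carries heparan sulphate and acts with the guidance ligand Slit and its Robo receptors. Its brightest transcript (Sdc-RA, FBtr0071706) had a log2 signal at 1-to-3 hours of 12.52, 11.66 and 11.73 in mutant PGCs and of 13.44, 13.83, 13.89 and 13.82 in wild-type PGCs, while somatic cells had 15.02, 14.97, 15.43 and 15.14. The 3 groups were ordered without overlap, mutant PGCs lowest and somatic cells highest. Sdc was lower in wild-type PGCs than in somatic cells (log2 difference -1.39, SE 0.17, adjusted p = 7.81e-05), a 2.62-fold difference, and lower in mutant than in wild-type PGCs (log2 difference -1.78, SE 0.25, adjusted p = 0.00349), a 3.42-fold difference. The list that named Sdc-RA chose transcripts higher in these wild-type PGCs than in those of 3-to-5 hours. The genotype p-value is thus not independent of the naming. Of the 13 somatic markers, 12 were also called lower in mutant than in wild-type PGCs at this age, with sums of 6210 to 8280 in mutant and 15900 to 21100 in wild-type PGCs and 2 of the 13, tup and pnr, at the level of the array controls in the mutant (medians 4.40 and 4.17). Their part in the Sdc difference was not tested.

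At 3-to-5 hours Sdc-RA was at 11.83, 12.25 and 12.28 in mutant PGCs and at 12.91, 12.58, 12.71 and 12.62 in wild-type PGCs. The groups did not overlap, but the difference was smaller than before (-0.59, SE 0.17, adjusted p = 0.0333) and was not called. At 5-to-7 hours the mutant samples had 12.57, 13.16, 11.80 and 12.54 and the wild-type samples 12.02, 12.82, 13.36 and 13.79. These overlapped, and the difference of -0.48 (SE 0.44, adjusted p = 0.539) was 0.09 with wild-type replicates 1 and 2 and -1.06 with replicates 3 and 4. The step to this age was 0.40 in the mutant (SE 0.32, adjusted p = 0.427) and 0.29 in wild type (SE 0.37, adjusted p = 0.661), where the pairs gave -0.28 and 0.87.

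The step from 1-to-3 to 3-to-5 hours was 0.15 for Sdc-RA in the mutant (SE 0.28, adjusted p = 0.755) and -1.04 in wild type (SE 0.15), the wild-type value being the decrease that named the transcript. The steps differed by 1.19 (SE 0.30), and by 1.03 to 1.47 when any 1 of the 14 samples was left out. This difference passed the limits in 6 of these 14 fits, and not with all 7 groups in 1 fit.

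The other named Sdc transcript (Sdc-RC, FBtr0071705) was lower in wild-type PGCs than in somatic cells to the same degree (log2 difference -1.42, SE 0.15, adjusted p = 3.79e-05), and was named through the list of transcripts present in PGCs, which uses none of the differences. In mutant PGCs at 1-to-3 hours it was lower than in wild type (log2 difference -0.86, SE 0.26, adjusted p = 0.0498), a 1.81-fold difference that was not called. Its values at 3-to-5 hours were 12.87, 12.75 and 12.63 in mutant PGCs and 12.14, 12.50, 12.46 and 12.73 in wild-type PGCs, which overlapped (difference 0.29, SE 0.17, adjusted p = 0.241). For Sdc-RC, which the wild-type decrease did not name, the first step was 0.66 in the mutant (SE 0.29, adjusted p = 0.173) and -0.49 in wild type (SE 0.16, adjusted p = 0.0411), and the steps differed by 1.15 (SE 0.31, adjusted p = 0.0375), which was called. The list that named it rests on the level in wild-type PGCs of 1-to-3 hours, the reference of this step. These p-values are thus not independent of the naming, and the alternative fits were not run for Sdc-RC by itself. Its late step in the mutant was -0.92 (SE 0.30, adjusted p = 0.0699), against 0.40 for Sdc-RA, and at 5-to-7 hours it differed between the genotypes by -0.98 (SE 0.44, adjusted p = 0.24). The mutant mean was 11.83 there, and the wild-type means were 12.16 in replicates 1 and 2 and 13.45 in replicates 3 and 4. Across the 26 samples, which share groups and normalization, the pair had a Pearson's r of 0.88.

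**Figure D3:**
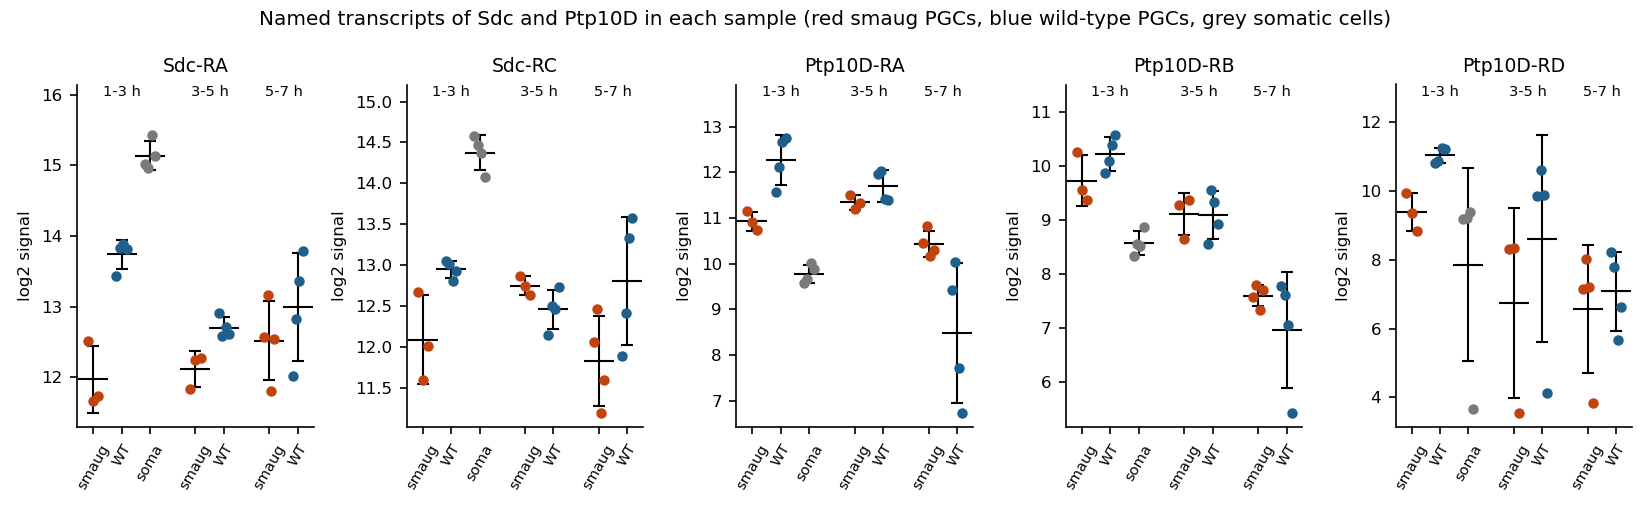
Log2 signal (vertical axis) of the 2 named Sdc transcripts and the 3 named Ptp10D transcripts in every sample, by age and group. Points are samples, horizontal bars the group means and vertical bars the SD. Single samples of Ptp10D-RD lie between 3.54 and 4.12 in 4 groups, far below the other samples of these groups.

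S and stet belong to the machinery that releases ligands of the epidermal growth factor (EGF) receptor. S (Star, FBgn0003310, transcript S-RB, FBtr0077993) carries the ligand precursor out of the endoplasmic reticulum. At 1-to-3 hours S had 11.47, 11.21 and 11.34 in mutant PGCs and 11.44, 11.44, 11.86 and 11.98 in wild-type PGCs, while somatic cells had 12.50, 12.68, 12.27 and 12.40. The genotypes overlapped, and both lay below all somatic samples. Wild-type PGCs differed from somatic cells by -0.78 (SE 0.18, adjusted p = 0.0044), a 1.72-fold difference that was not called.

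At 3-to-5 hours S was at 11.24, 11.51 and 11.17 in mutant PGCs and at 11.01, 10.16, 10.36 and 10.01 in wild-type PGCs. All mutant samples exceeded all wild-type samples, by 0.92 on average (SE 0.25, adjusted p = 0.0274), which at 1.90-fold was just under the limit and passed without wild-type replicate 1 (1.13, adjusted p = 0.00488). The list that named S chose transcripts low in these wild-type samples, so these p-values are not independent of the naming. At 5-to-7 hours the mutant had 10.40, 10.50, 9.66 and 9.44 and wild type 9.86, 10.61, 12.12 and 11.62. Wild-type replicates 3 and 4 exceeded every mutant sample, whereas replicate 1 lay within the mutant range and replicate 2 just above it. The genotype difference at this age was -1.05 (SE 0.51, adjusted p = 0.272), at -0.23 with wild-type replicates 1 and 2 (adjusted p = 0.782) and -1.87 with replicates 3 and 4 (adjusted p = 0.015).

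From 1-to-3 to 3-to-5 hours it differed by -0.03 in the mutant (SE 0.17, adjusted p = 0.918) and by -1.30 in wild type (SE 0.24), which is the decrease that named the transcript. From 3-to-5 to 5-to-7 hours it fell in the mutant (log2 difference -1.31, SE 0.30, adjusted p = 0.0218), 2.48-fold, while wild type gave 0.67 (SE 0.50, adjusted p = 0.452). The late mutant fall lost its call when any 1 of the 3 mutant samples of 3-to-5 hours was left out (adjusted p 0.0599 to 0.076). The genotypes differed in the first step by 1.26 (SE 0.32), which contains the decrease used in naming, and in the second by -1.98 (SE 0.63, adjusted p = 0.104). The first passed the limits in 5 of 14 fits without single samples, and not with all 7 groups in 1 fit. The second was -1.16 with late wild-type replicates 1 and 2 (adjusted p = 0.167) and -2.80 with replicates 3 and 4 (adjusted p = 0.000977). Both steps use the 3-to-5 hour samples, with opposite signs, and those of wild type were used in naming.

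The transcript of stet was the only one of the 7 called between the genotypes at 3-to-5 and at 5-to-7 hours. The gene stet (FBgn0020248, transcript stet-RB, FBtr0072712) encodes a rhomboid intramembrane protease that cleaves EGF receptor ligands in germ cells, where it acts in signalling to the somatic cells around them. At 1-to-3 hours stet had 12.35, 12.25 and 12.16 in mutant PGCs and 11.43, 11.55, 11.37 and 11.03 in wild-type PGCs, while somatic cells had 7.66, 8.10, 8.16 and 7.71. The 3 groups were separate, with the mutant highest. The difference of 3.44 (SE 0.18) between wild-type PGCs and somatic cells belongs to the list that named the transcript. Mutant PGCs exceeded wild-type PGCs by 0.91 (SE 0.17, adjusted p = 0.0104), a 1.88-fold difference that was not called.

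At 3-to-5 hours stet was at 11.61, 11.66 and 11.77 in mutant PGCs, against 8.38, 8.64, 8.78 and 9.03 in wild-type PGCs. The mutant was higher by 2.97 (SE 0.18, adjusted p = 9.6e-05), 7.85-fold, and this call held under every alternative tried and without any single sample. A list that named stet chose transcripts low in these wild-type samples. The p-value and the alternatives, which reuse these samples, are thus not independent of the naming. At 5-to-7 hours the mutant samples had 11.39, 11.11, 11.42 and 11.15 and the wild-type samples 9.81, 9.26, 7.32 and 7.50. All mutant samples lay above all wild-type samples, with a difference of 2.80 (SE 0.56, adjusted p = 0.0441). It was 1.74 with wild-type replicates 1 and 2 (adjusted p = 0.0136) and 3.86 with replicates 3 and 4 (adjusted p = 0.000275), so that both pairs passed. With all wild-type samples in the fit it was lost when any 1 of 7 of the 8 samples was left out, the exception being wild-type replicate 1, with an adjusted p of up to 0.133, while the differences without single samples were 2.41 to 3.24. The summed intensity of the 13 germ cell markers, which the brightest of them dominate, was also higher in the mutant, with sums of 297000 to 327000, against 233000 to 252000 in wild type at 1-to-3 hours, of 244000 to 271000, against 147000 to 162000 at 3-to-5 hours, and of 246000 to 280000, against 67400 to 199000 at 5-to-7 hours. Of these 13, osk at all 3 ages, piwi at 3-to-5 hours and gcl at 5-to-7 hours were called higher, while bam was at -0.82 (adjusted p = 0.0275) at 1-to-3 hours and -0.70 (adjusted p = 0.0274) at 3-to-5 hours, both under 2-fold, and the median over the 13 was 0.29, 0.61 and 1.52 at the 3 ages. Their part in the stet difference was not tested.

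The decrease of stet at 3-to-5 hours in wild-type PGCs (log2 difference -2.64, SE 0.18, 6.23-fold) is the one through which it was named. In the mutant the same step was smaller (log2 difference -0.58, SE 0.15, adjusted p = 0.0501), 1.49-fold and not called, although no 3-to-5 hour sample reached the lowest 1-to-3 hour sample. The steps differed by 2.06 (SE 0.24), a value that contains the decrease used in naming. A further -0.41 (SE 0.17, adjusted p = 0.131) followed in the mutant at 5-to-7 hours. For wild type the late step was -0.23 (SE 0.57) with all samples, but 0.83 with replicates 1 and 2 and -1.29 with replicates 3 and 4, which differ in sign, and this step too was used in naming. The second-step difference between genotypes was -0.18 (SE 0.66), with -1.24 and 0.88 for the separate pairs.

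Ptp10D (FBgn0004370) encodes a receptor tyrosine phosphatase of the cell surface with fibronectin type III repeats, known from axon guidance and from the tubular epithelia of the embryo. The transcript Ptp10D-RA (FBtr0073523) had a log2 signal at 1-to-3 hours of 11.15, 10.91 and 10.73 in mutant PGCs and of 11.58, 12.11, 12.66 and 12.75 in wild-type PGCs, while somatic cells had 9.57, 9.66, 10.01 and 9.88. Mutant PGCs were intermediate, with no overlap on either side. The mutant was lower than wild type (log2 difference -1.34, SE 0.31, adjusted p = 0.019), 2.54-fold, and lost its call without mutant replicate 2 (adjusted p = 0.0598) or replicate 3 (adjusted p = 0.0714). The PGC-minus-soma difference of 2.50 (SE 0.26) belongs to the list that named it. That list chose transcripts high in these wild-type samples, so the genotype p-value is not independent of the naming.

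At 3-to-5 hours Ptp10D-RA had 11.50, 11.19 and 11.34 in mutant PGCs and 11.96, 12.04, 11.41 and 11.39 in wild-type PGCs, which overlapped (difference -0.36, SE 0.21, adjusted p = 0.251). At 5-to-7 hours the order was the opposite, with 10.45, 10.83, 10.16 and 10.30 in mutant PGCs and 9.43, 10.05, 7.72 and 6.73 in wild-type PGCs. The mutant samples were all above the wild-type samples, by 1.96 (SE 0.68, adjusted p = 0.156) on average, but the wild-type samples differed widely among themselves. The difference was 0.70 with wild-type replicates 1 and 2 (adjusted p = 0.219) and 3.21 with replicates 3 and 4 (adjusted p = 0.00141).

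The late decrease of Ptp10D-RA in wild type, which named it, was -3.22 on the log2 scale (SE 0.69), at -1.96 with replicates 1 and 2 and -4.48 with replicates 3 and 4. In the mutant the same step was -0.91 (SE 0.21, adjusted p = 0.0225), 1.88-fold and not called, with no overlap between the ages. The steps differed by 2.31 (SE 0.80), with 1.05 and 3.57 for the separate pairs. At the earlier step the changes were 0.41 in the mutant (SE 0.18, adjusted p = 0.178) and -0.57 in wild type (SE 0.29).

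The transcript Ptp10D-RB (FBtr0073522) followed Ptp10D-RA in part, with a Pearson's r of 0.85 over the 26 samples. It did not differ between genotypes at 1-to-3 hours beyond its spread (-0.50, 95% interval -1.14 to 0.14) nor at 3-to-5 hours (0.02, 95% interval -0.65 to 0.69). At 5-to-7 hours the genotypes overlapped in Ptp10D-RB (difference 0.63, SE 0.50, adjusted p = 0.48), unlike in Ptp10D-RA. It fell in the mutant at 5-to-7 hours (log2 difference -1.51, SE 0.23, adjusted p = 0.00659), 2.85-fold. The wild-type fall, which named it, was -2.12 (SE 0.52), and the steps differed by 0.61 (SE 0.63). The transcript Ptp10D-RD (FBtr0073525) had values of 3.54 to 4.12 in wild-type 3-to-5 hour replicate 4, mutant 3-to-5 hour replicate 3, mutant 5-to-7 hour replicate 4 and somatic replicate 4, near the median of the control features on the arrays (4.06 to 4.83). The remaining samples of these groups lay between 7.16 and 10.60. Neither of the other Ptp10D transcripts was low in these samples, and Ptp10D-RD was not interpreted in comparisons that contain them. At 1-to-3 hours, with no such value, Ptp10D-RD was lower in mutant than in wild-type PGCs (8.85 to 9.95, against 10.82 to 11.24, log2 difference -1.66, SE 0.27, adjusted p = 0.00612). Lists that named it chose transcripts high in these wild-type samples, against the soma and against 3-to-5 hours. This p-value is thus not independent of the naming.

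The 4 late wild-type samples were not alike for most of the genes. Replicates 3 and 4 had more S (log2 difference of the pair means 1.64) and Sdc-RA (1.15) than replicates 1 and 2, and less Ptp10D-RA (-2.52), stet (-2.12) and wun (-1.16). For zfh1 (0.43) and foi (-0.11) the pairs differed less. Over all transcripts, the pairs differed by more than 1 on the log2 scale for 34.6%. The transcripts with more signal in replicates 3 and 4, S and Sdc-RA, lay below their somatic level in 1-to-3 hour PGCs, whereas Ptp10D-RA and stet lay above theirs. The signal of Ptp10D-RA in these replicates, 7.72 and 6.73, was below that of 1-to-3 hour somatic cells (9.57 to 10.01), and that of stet (7.32 and 7.50) was below the lowest somatic sample (7.66). The part of somatic RNA in these differences was not tested.

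**Figure D4:**
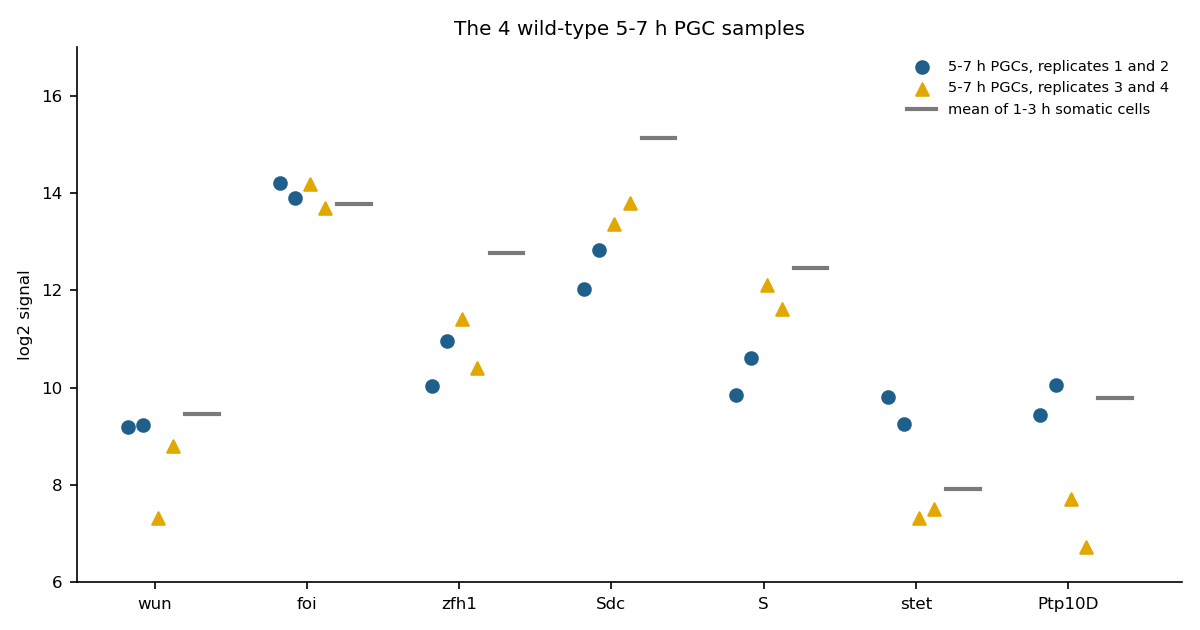
Log2 signal (vertical axis) of the 7 genes in the 4 wild-type PGC samples of 5-to-7 hours, with circles for replicates 1 and 2, triangles for replicates 3 and 4 and a grey line for the mean of 1-to-3 hour somatic cells. The triangles lie above the circles for S (12.12 and 11.62, against 9.86 and 10.61) and Sdc and below them for wun, stet and Ptp10D.

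The course of each gene over the 26 samples was set beside that of the other 4799 named genes. The highest Pearson's r with stet was that of aft (0.97), osk (0.96) and orb (0.95). For Ptp10D it was CG31304 (0.95), mol (0.93) and Gga (0.92), for Sdc CkIalpha (0.94), Pak3 (0.94) and Jarid2 (0.93), and for wun CG13698, CG31156 and Jheh2 (0.92 each). S was most like CG32066 (0.90), stg (0.90) and bon (0.89), zfh1 most like Tis11, fax and crp (0.89 each), and foi most like CG11906 (0.89), GC1 (0.88) and CG11660 (0.87). The osk mRNA is a component of the germ plasm and orb encodes an RNA-binding protein of the germ line. Among the 7 genes, the coefficients were highest for wun with stet (0.71) and for Sdc with S (0.71), and lowest for Sdc with stet (-0.61). The points share arrays, groups and 1 normalization, so these are descriptions of profiles.

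Related genes were taken from lists of pathway members, of which only those named through the study's lists could be followed, so the counts are not shares of a gene family. Several of the genes below (p120ctn, hkb, Abd-B, Sulf1, Pez, Ptp4E and CG12746 among them) were named through the first step of wild type, whose samples the genotype comparisons share. Of 37 genes for germ cell migration and gonad assembly, 20 named genes remained beside the members above. In the mutant relative to wild type, 1 was called higher and 3 lower at 1-to-3 hours, beside 7.46% and 6% of all transcripts, and 3 higher and 5 lower at 3-to-5 hours, beside 8.77% and 7.83%. The median differences were -0.29 and 0.19, against -0.01 and 0.01 over all transcripts. The paralogue wun2 was higher in mutant PGCs at 1-to-3 hours (12.34 ± 0.24, n = 3, against 11.31 ± 0.12 in wild type, n = 4, SD; log2 difference 1.03, adjusted p = 0.00627). At 3-to-5 hours alpha-Cat, a partner of the cadherin adhesion complex, was 1.93 higher in mutant PGCs (adjusted p = 0.000112), p120ctn, which binds the cadherin tail, 1.94 higher (adjusted p = 0.00483) and Stat92E, the transcription factor of the JAK/STAT pathway, 1.34 higher (adjusted p = 0.000894).

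Several of the genes lower in mutant PGCs of 3-to-5 hours encode factors of the somatic regions or guidance receptors. The transcription factor gene of the terminal regions hkb had 8.23 ± 0.57 in mutant PGCs (n = 3), against 11.23 ± 0.05 in wild-type PGCs (SD, n = 4; adjusted p = 0.000264). The log2 difference was -2.99 for lea (adjusted p = 0.00851), a Robo family receptor for Slit, and -2.37 for Abd-B (adjusted p = 0.00222), a Hox gene of the posterior. The lea signal in the mutant, 6.10 ± 1.41 (SD, n = 3), varied widely. Markers of the somatic blastoderm were lower too, 9 of 13 against 1 higher, with sums of 4770 to 6380 in mutant and 27000 to 33900 in wild-type PGCs, and hkb is 1 of these 13. Their part in these differences was not tested.

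Among 26 genes of EGF receptor signalling, 9 were named besides S and stet. At 1-to-3 hours wild-type PGCs had less mRNA than somatic cells for the ligand gene spi (13.56 ± 0.41, against 15.25 ± 0.14, SD, n = 4 each; log2 difference -1.69, adjusted p = 0.000105), the adaptor gene drk (-1.31, adjusted p = 0.00075) and Ras85D (-1.42, adjusted p = 1.66e-05). The other ligand gene in the list, grk, was higher in PGCs by 1.18, through the list that named it. Between the genotypes, 1 of the 9 was called higher and 1 lower at 1-to-3 hours, beside 7.46% and 6% of all transcripts, and 2 higher and 1 lower at 3-to-5 hours, beside 8.77% and 7.83%. Lower in the mutant were grk at 1-to-3 hours (-1.07, adjusted p = 0.00427) and phl, the gene of the kinase Raf, at 3-to-5 hours (-1.02, adjusted p = 0.00269), and aop was higher at 3-to-5 hours (1.37, adjusted p = 0.00243). In mutant PGCs rl, the MAP kinase gene, was higher than in wild type at 1-to-3 hours by 1.29 (adjusted p = 0.00415) and at 3-to-5 hours by 1.18 (adjusted p = 0.00327), and it fell in the mutant at 5-to-7 hours (log2 difference -1.51, adjusted p = 0.00453). In the same step aop, which encodes a repressor downstream of the MAP kinase, fell (log2 difference -2.44, adjusted p = 0.0074) and so did grk (log2 difference -1.55, adjusted p = 0.0142). Thus 3 of these 9 genes and S fell in the mutant at 5-to-7 hours, beside 6.25% of all transcripts. The call of S was lost without any 1 mutant sample of 3-to-5 hours, and the alternatives were not run for the other genes. Over all transcripts, 1039 were called lower in this step, but 68 with the replicate block. Among the 9, the difference between the steps of the genotypes was called only for rl, in the step to 5-to-7 hours (-1.51, adjusted p = 0.0461). It rests on the late wild-type samples and was not fitted with each pair alone. Over all transcripts 258 were called lower in this difference, but 85 to 96 when any 1 mutant sample of 3-to-5 hours was left out.

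Of 19 genes for heparan sulphate proteoglycans and Slit-Robo signalling, 8 were named besides Sdc. In 1-to-3 hour PGCs 5 of these were lower than in somatic cells and 1 higher, beside 17.5% and 18.5% of all transcripts, with a median of -1.63 beside 0.15 over all transcripts. The glypican gene dlp had 12.80 ± 0.13 in PGCs and 14.83 ± 0.10 in somatic cells (SD, n = 4 each), a difference of -2.03 (adjusted p = 1.71e-06), and robo, which encodes a receptor for Slit, had 10.99 ± 0.82 and 14.15 ± 0.12, a difference of -3.15 (adjusted p = 5.65e-05). In the mutant, robo was higher at 3-to-5 than at 1-to-3 hours by 2.12 (adjusted p = 0.0082), and its level at 3-to-5 hours was 12.02 ± 0.35 in mutant PGCs (n = 3), against 13.60 ± 0.22 in wild-type PGCs (n = 4), a difference of -1.58 (adjusted p = 0.00143). Sulf1, a sulphatase gene acting on heparan sulphate, was lower in the youngest mutant PGCs than in their wild-type counterparts (log2 difference -1.03, adjusted p = 0.00624), as was Sdc.

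Among 11 tyrosine phosphatase genes, 7 were named besides Ptp10D. Its closest relative Ptp4E was on the other side of the comparison with the soma, with 8.43 ± 0.12 in PGCs and 10.64 ± 0.21 in somatic cells (SD, n = 4 each), a difference of -2.20 (adjusted p = 2.32e-06). In mutant PGCs Ptp4E rose by 1.54 at 3-to-5 hours (adjusted p = 0.0255) and Pez fell (log2 difference -1.55, adjusted p = 0.0154). In the mutant step to 5-to-7 hours 2 of the 7 fell, beside 6.25% of all transcripts, and 1 rose, beside 6.03%. Pez rose (1.11, adjusted p = 0.0217), Ptpmeg fell (log2 difference -2.44, adjusted p = 0.00386) and so did Ptp69D (log2 difference -1.11, adjusted p = 0.0274). Of 8 lipid phosphate phosphatase genes only CG12746 was named besides wun and wun2, and it was lower in mutant PGCs at 3-to-5 hours (10.77 ± 0.39, n = 3, against 12.30 ± 0.27 in wild type, n = 4, SD; log2 difference -1.53, adjusted p = 0.00255). Of 11 ZIP zinc transporter genes 3 were named besides foi, and CG7816 was higher in mutant PGCs, by 1.26 at 1-to-3 hours (adjusted p = 0.00288) and by 1.81 at 3-to-5 hours (adjusted p = 0.000576), both ages at which foi was lower in the mutant without being called.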

How the data were processed

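The authors amplified RNA with WT-Ovation Pico, labelled it with Cy3 or Cy5, hybridised it to custom NimbleGen arrays, and normalized it by the quantile method of RMA in ArrayStar 3. The deposited values are linear intensities, and log2 was taken of each. Quantile normalization hides a change in total RNA. Which 2 samples shared an array is not given in the sources used here. Of 17130 features, 16623 with FlyBase transcript identifiers were tested. Names came from matching group means or ratios to 6 significant digits with the entries of 5 supplementary tables, with 0 conflicts among the 2133 transcripts matched through several. The members and lists were chosen with earlier results of these data known.

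The samples of the compared groups were fitted with limma 3.58.1 (R 4.3.3; lmFit, eBayes, Benjamini-Hochberg), where the methods used SAM. For the difference between steps the 4 groups entered 1 fit. Named are the 7 genes, in each list up to 3 genes per direction and comparison with the largest called difference and no overlap, the 3 most alike genes, and smg, nos and sna as checks. No presence filter was used, and the number of samples limits precision. The fit was checked on simulated data. Figures used Python 3.11.15 with matplotlib 3.10.9. Samples with the same replicate number had correlations of deviations from group means of -0.14 to 0.22. These were not set against samples with different numbers, so whether the numbers mark pairs is not known. The main fits did not pair samples. Alternatives were other fits, centring, normalization, weights, filters, rows per gene, and single samples or pairs left out.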

Additional observations from a re-analysis of the deposited data

Results flagged for a closer look

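The lowest of the 4 Sdc values in wild-type PGCs of 1-to-3 hours, 13.44 in replicate 1, stood apart from the other 3 (13.82 to 13.89) by more than Dixon's limit, which chance passes in about 1 in 20 groups. Without this sample Sdc was still called lower in mutant than in wild-type PGCs at that age. The change from 1-to-3 to 3-to-5 hours differed between smaug-mutant and wild-type PGCs past the limits of the limma fit for 3 genes, by 2.06 for stet, 1.26 for S and 1.19 for Sdc on the log2 scale, mutant minus wild type. With any 1 of the 14 samples left out, stet passed in 14 fits, Sdc in 6 and S in 5. With all 7 groups in 1 fit only stet passed. The stet and S samples of the mutant all lay above those of wild type at 3-to-5 hours, while for Sdc the mutant was lower at both ages. In each case the wild-type change within the difference was used when the transcript was named, so that this is a description and not an independent test.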

How the results depend on the processing

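The wild-type samples of 5-to-7 hours limit the comparisons that use them, with a rank correlation of 0.868 to 0.913 between samples other than replicates 1 and 2. The 3 mutant samples of 3-to-5 hours limit the late mutant step, whose calls were lost without single ones of them. Among the counts of called genes under the alternatives, 118 stayed within 1.5 times the main count and 46 did not. Among the values of single genes, 1016 kept their direction and side of the threshold, 65 lost and 21 gained a call, and 46 turned in sign, all of them in differences that were not called.

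The number of genes called in the wild-type step to 5-to-7 hours was 2, but 1 with median centring, with repeated quantile normalization and with the mean of the rows per gene, and 4 with replicates 3 and 4 only. Between the genotypes it was 1 of 7 at 1-to-3 hours with all 7 groups in 1 fit, and 4 of 7 at 5-to-7 hours with all groups or with wild-type replicates 3 and 4 only. For the difference between the steps it was 1 with all groups for the first step, and for the second 2 with all groups, 1 with wild-type replicates 1 and 2 and 2 with replicates 3 and 4. With the replicate block it was 0 in the later step of either genotype, 0 between the genotypes at 1-to-3 and at 5-to-7 hours, and 1 for the difference between the first steps. Whether replicate numbers pair the samples is not known, so what these lost calls mean cannot be decided here. Over all transcripts the block left 0 calls in the later wild-type step, against 238 higher and 252 lower. Calls rose over all transcripts too. In that step replicates 3 and 4 alone gave 2051 higher and 2397 lower. Between the genotypes at 5-to-7 hours, 250 higher and 165 lower became 1554 and 1360 with all groups. Replicates 3 and 4 gave 2234 and 1866 there. For the second-step difference, 266 higher and 258 lower became 768 and 645 with all groups. They became 536 and 574 with replicates 1 and 2, and 2268 and 1926 with replicates 3 and 4.

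Leaving out single samples gave counts of 2 to 4 in the first and 0 to 2 in the second wild-type step, 0 to 3 in the second mutant step, 1 to 3, 1 to 2 and 0 to 1 between the genotypes at the 3 ages, and 1 to 4 and 0 to 1 for the differences between the steps.

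The following values turned in sign. In the first wild-type step zfh1 was 0.07 with repeated quantile normalization and 0.01 with array weights (-0.10 to 0.12 without single samples). In the second, replicates 1 and 2 alone gave 0.02 for wun, -0.28 for Sdc, -0.15 for S and 0.83 for stet, and array weights -0.11 for Sdc and 0.51 for stet (stet -0.68 to 0.15 without single samples). In the first mutant step S was 0.06 with repeated quantile normalization (-0.13 to 0.04 without single samples), Sdc -0.01 to 0.43 without single samples, and Ptp10D -0.95 as the mean of its rows, which holds the Ptp10D-RD value of 3.54. In the second, Sdc was -0.26 as the mean of its rows and wun -0.27 to 0.00 without single samples. Between the genotypes, wun was -0.22 to 0.06 at 1-to-3 hours without single samples. At 5-to-7 hours array weights gave 0.01 for foi and 0.04 for Sdc, replicates 3 and 4 gave 0.04 for foi, replicates 1 and 2 gave 0.09 for Sdc, and foi was -0.11 to 0.06 without single samples. For the difference between the second steps, array weights gave -0.02 for wun and 0.11 for zfh1, replicates 1 and 2 gave -0.19 for wun and 0.11 for zfh1, replicates 3 and 4 gave -0.47 for Sdc and 0.88 for stet, and the mean of the rows gave -0.58 for Sdc. Without single samples these were -0.05 to 0.59 for wun, -0.38 to 0.14 for zfh1, -0.22 to 0.37 for Sdc and -0.56 to 0.27 for stet. Except where the construction of an alternative names it, the cause was not tested.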
